A study of Homo sapiens with 18 samples.

Results

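The genes described here are the death receptors, the ligand TRAIL and the caspase-8 axis of the extrinsic apoptosis pathway: FAS, TNFRSF1A, TNFRSF10A, TNFRSF10B, TNFRSF10C, TNFRSF10D, TNFSF10, FADD, CASP8 and CFLAR. They were chosen by gene symbol, and all 10 were found among the 20365 genes of both expression tables. The cells were PC3, an established human prostate cancer cell line, sequenced as poly(A) RNA in 18 libraries, with 3 libraries in each of 6 groups. The knockdown groups were grown in 10% fetal calf serum (FCS) after lentiviral delivery of a short hairpin RNA: a control hairpin in Control KD, a hairpin to Elongin B in EloB KD, and a hairpin to Elongin C in EloC KD. In the peptide experiment, cells in 2.5% FCS received a Scrambled peptide, a Mutant peptide or a WT peptide at 12.5 µM for 24 h, and the labels name no hairpin for them. The series' title gives the aim as inhibiting the Elongin BC complex, made of the Elongin B and Elongin C proteins, to bring about apoptosis. The number of hairpins or of infected cultures per group and the peptide sequences are not given in the labels, nor whether replicates were separate cultures. The p-values therefore measure the spread between these libraries, which may be technical.

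In the extrinsic pathway a ligand binds a receptor that carries a death domain in its cytoplasmic tail. FAS and the TRAIL receptors DR4 (TNFRSF10A) and DR5 (TNFRSF10B) recruit the adaptor FADD, which brings in procaspase-8, and the caspase is activated by pairing on that platform, the death-inducing signalling complex. The FLIP proteins, made from CFLAR, resemble caspase-8 and compete with it or pair with it there. TNFR1 (TNFRSF1A) first builds a complex with TRADD, RIPK1, TRAF2 and the cIAP ubiquitin ligases that signals to NF-kB, and reaches caspase-8 in a later complex. TNFRSF10C and TNFRSF10D bind TRAIL (TNFSF10) but lack a working death domain, and are called decoy receptors.

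Values are read counts normalised by the authors for library size, so a normalised count compares a gene between libraries of one experiment. A fold change is a difference of log2(normalised count + 1), given with its standard error (SE), and was called when the Benjamini-Hochberg adjusted p of limma over all genes tested was under 0.05. Each library held 40288528 to 57225737 assigned reads in the knockdown experiment and 31671205 to 34699856 in the peptide experiment. The targeted genes checked the labels: ELOB was 7.04-fold lower in EloB KD and ELOC 8.67-fold lower in EloC KD than in Control KD. In a principal component analysis, the first component (51.2% of the variance) set EloC KD apart from the other knockdown libraries, and that of the peptide experiment (44.0%) set replicate 2 of each group apart. Of the markers for the line, VIM, KRT8, KRT18 and EPCAM were present in every library (365.5 to 68955) and KLK3 was listed at 0 in all of them. Among 8 markers of leukocytes, endothelium and fibroblasts, CD3E was at most 3.16, but PECAM1 and COL1A1 reached 2239 and 2464. The summed level of these 8 markers was 1969 to 2424 in Control KD, 2668 to 3106 in EloB KD and 3278 to 3829 in EloC KD, and its part in the results was not tested. Its members moved unequally: COL1A1 was at 485.6 to 657.4 in Control KD, 492.7 to 835.8 in EloB KD and 1919 to 2464 in EloC KD. PECAM1 was at 1280 to 1837, 2016 to 2239 and 1224 to 1408, and DCN at 0 to 1.22, 3.73 to 6.72 and 9.90 to 17.2, in the same order of groups. In bulk RNA, fewer cells expressing a gene and less RNA per cell cannot be told apart.

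In GENCODE v29 (GRCh38) FAS spans chr10:88990582-89015785 on the plus strand, and 380 bases (8.93%) of its exons are shared with exons of ACTA2 on the opposite strand. TNFRSF1A spans chr12:6328757-6342114 and TNFSF10 spans chr3:172505508-172523507, both on the minus strand. The DNA upstream of FAS and TNFRSF1A, the genes that rose together in EloC KD, and of the ligand gene TNFSF10 is shown here for reference. RefSeq holds a promoter entry for 6 of the 10 genes, and the stretches printed are the part of the 250 bases before the RefSeq start (build GRCh38.p14) that lies outside every annotated exon of the gene. They read 5′ to 3′ on the gene's own strand, and capitals mark matches to 5 motifs on either strand: AP-1 (TGANTCA), an NF-kB-like motif (GGG and CC with 5 bases of any kind between), an interferon response element-like motif (ISRE-like, GAAA and GAAA with 2 bases between), a STAT-like motif (TTCNNNGAA) and the CCAAT box (CCAAT).
FAS, chr10:88990548-88990581, plus strand: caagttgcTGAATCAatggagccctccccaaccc
TNFRSF1A, chr12:6342115-6342326, minus strand: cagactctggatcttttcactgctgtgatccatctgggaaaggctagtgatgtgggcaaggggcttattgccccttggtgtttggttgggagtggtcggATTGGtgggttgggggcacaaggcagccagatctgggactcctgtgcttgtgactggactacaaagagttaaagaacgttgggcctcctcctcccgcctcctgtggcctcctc
TNFSF10, chr3:172523508-172523680, minus strand: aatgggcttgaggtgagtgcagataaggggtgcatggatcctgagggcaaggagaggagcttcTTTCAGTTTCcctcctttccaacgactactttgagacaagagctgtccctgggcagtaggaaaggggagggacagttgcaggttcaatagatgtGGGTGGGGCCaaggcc
The FAS stretch held 1 AP-1 match, a motif found in 6.57% of the 35116 windows of 250 bases in the reference. Windows of CASP8 and CFLAR, which had no called change, also held AP-1 matches. A pair of overlapping NF-kB-like matches in the FAS window lay just inside the outermost annotated exon and is not printed, and 54.4% of windows hold that motif. The TNFRSF1A stretch held only a CCAAT box, present in 32.0% of windows. TNFSF10 had an ISRE-like match, present in 3.02% of windows, and an NF-kB-like match. These matches describe the letters and show no binding.

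FAS, the receptor of FAS ligand, was the member with the largest called rise in EloC KD. Its normalised counts were 395.7, 320.5 and 454.1 in Control KD, 801.3, 451.4 and 534.1 in EloB KD, and 1093, 935.8 and 1037 in EloC KD. All 3 EloC KD libraries lay above every other library of the experiment, while EloB KD replicate 2 lay inside the Control KD range. FAS rose 2.64-fold in EloC KD against Control KD, by 1.40 ± 0.20 (log2, SE; adjusted p = 0.000419, limma). In EloB KD the fold change against Control KD was 0.58 ± 0.20, which missed the threshold (adjusted p = 0.0694, limma). With the replicate number as a block, which compares libraries of the same number with each other, it passed (adjusted p = 0.0103, limma), as it did without EloB KD replicate 2 (0.0341), and the authors' deposited table gives 0.57 with adjusted p = 0.0247. Under 13 of 16 settings the EloB KD change stayed uncalled, and over all 16 its log2 fold change ran from 0.35 to 0.76. Set against each other, FAS was lower in EloB KD than in EloC KD by a log2 fold change of -0.82 ± 0.20 (adjusted p = 0.00766, limma). The labels name a stranded kit, but whether counting used the strand is not given in the sources used here. If it did not, reads from the shared FAS and ACTA2 exons cannot be told apart. ACTA2 had 65.7 to 85.2 normalised counts in Control KD, 120.1 to 219.0 in EloB KD and 95.8 to 107.2 in EloC KD.

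**Figure D1:**
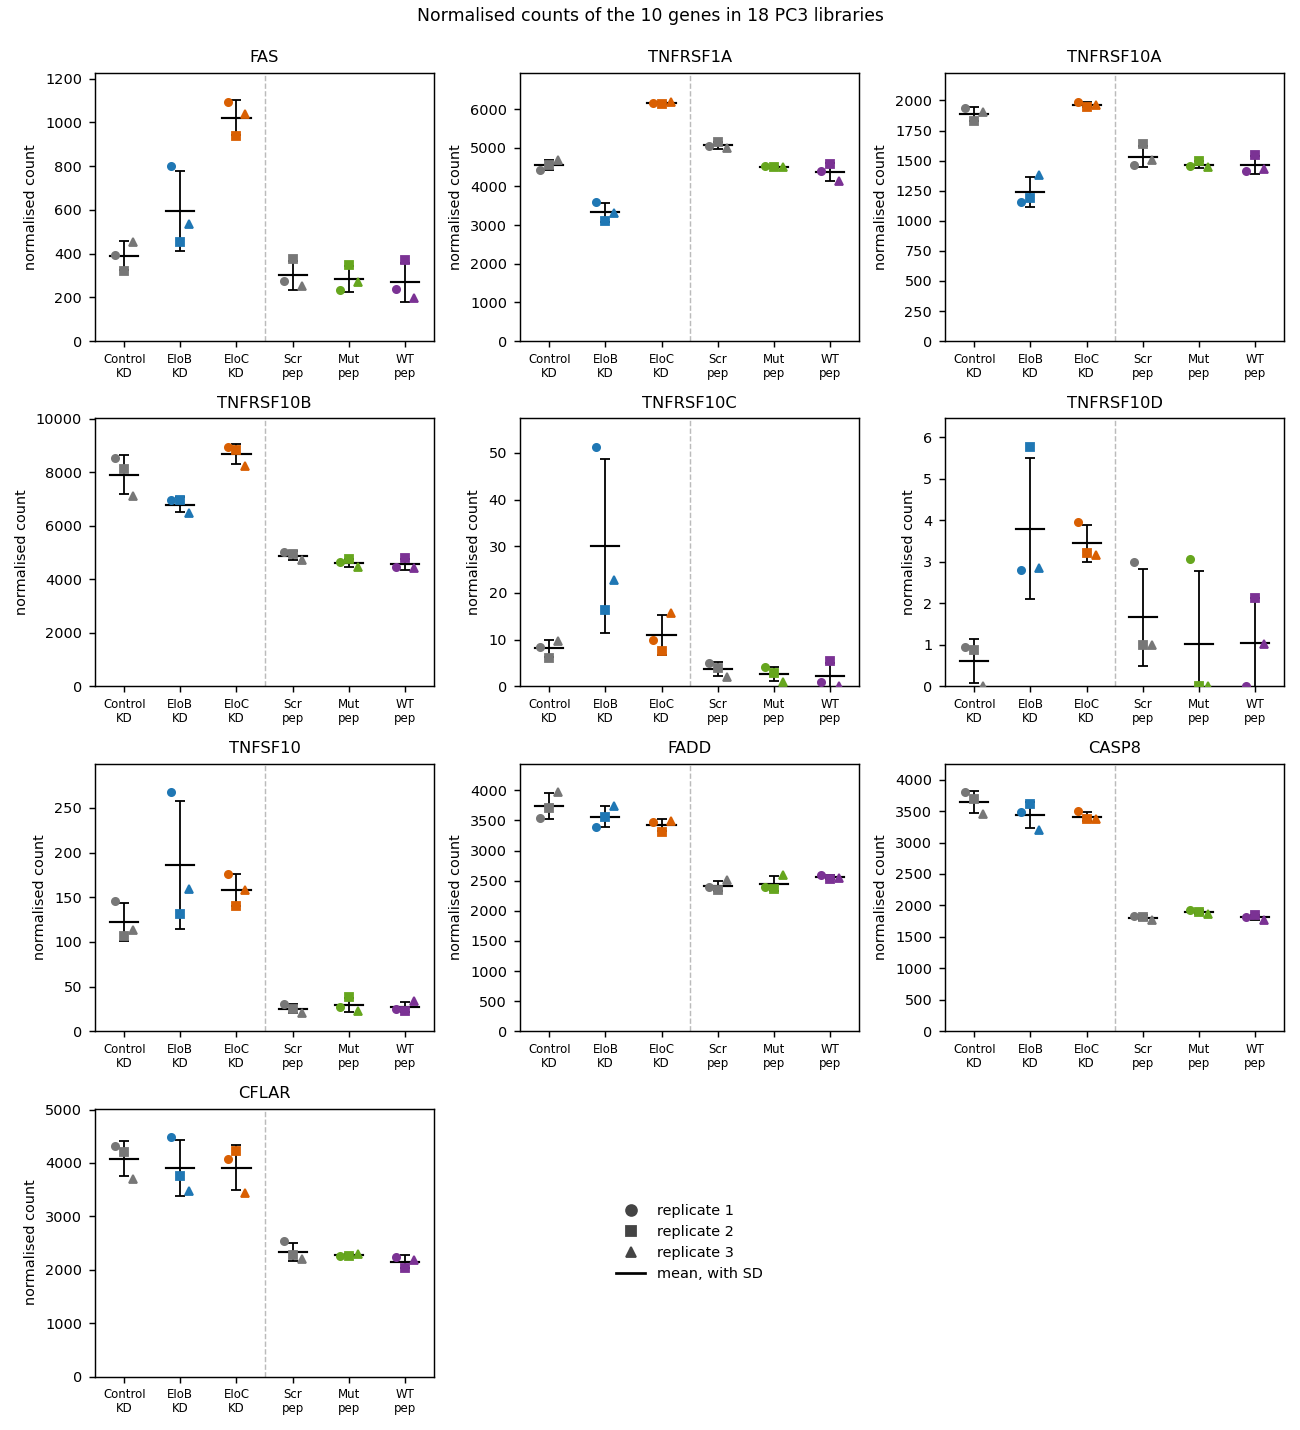
Normalised counts of the 10 genes (vertical axes, linear from 0) in each of the 18 libraries, by group, with the group mean and SD; the dashed line separates the knockdown from the peptide experiment, which were normalised separately. FAS stands highest in EloC KD (935.8 to 1093), TNFRSF1A moves down in EloB KD and up in EloC KD, TNFRSF10A is lowest of the knockdown groups in EloB KD (1154 to 1379), and CASP8 and CFLAR overlap across the knockdown groups.

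TNFRSF1A, which encodes the main receptor for TNF, moved in opposite directions in the 2 knockdowns. It measured 4427, 4551 and 4684 normalised counts in Control KD, 3594, 3101 and 3302 in EloB KD, and 6163, 6134 and 6188 in EloC KD. The 3 groups did not overlap, and the EloC KD libraries were the most alike. Against Control KD the gene fell by 0.45 ± 0.08 on the log2 scale in EloB KD (adjusted p = 0.00314, limma) and rose by 0.44 ± 0.08 in EloC KD (adjusted p = 0.00148, limma). Compared directly, EloB KD was lower than EloC KD by a log2 fold change of -0.89 ± 0.08 (adjusted p = 2.1e-05, limma). This was the smallest adjusted p of any of the 10 genes in any comparison.

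TNFRSF10A, which encodes the TRAIL receptor DR4, was lower in EloB KD and passed no threshold in EloC KD. Its counts were 1935, 1826 and 1900 in Control KD, 1154, 1186 and 1379 in EloB KD, and 1988, 1945 and 1964 in EloC KD. Every EloB KD library was below every library of the other knockdown groups. The gene fell 1.53-fold in EloB KD against Control KD, with a log2 fold change of -0.61 ± 0.09 (adjusted p = 0.00154, limma). In EloC KD the change was 0.06 ± 0.09 with a 95% interval of -0.15 to 0.26 (adjusted p = 0.635, limma). The direct comparison of the knockdowns gave -0.67 ± 0.09 (adjusted p = 0.000252, limma).

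TNFRSF10B, which encodes DR5, was lower in EloB KD than in EloC KD. It gave 8514, 8124 and 7097 in Control KD, 6947, 6944 and 6481 in EloB KD, and 8938, 8840 and 8247 in EloC KD. The EloB KD libraries lay below all others, with replicate 3 of Control KD close above them. That difference between the knockdowns was a log2 fold change of -0.35 ± 0.09 (adjusted p = 0.00754, limma). Against Control KD it gave -0.22 ± 0.09 in EloB KD (adjusted p = 0.108, limma) and 0.14 ± 0.09 in EloC KD (adjusted p = 0.234, limma). The first of these passed with the replicate block (adjusted p = 0.0229, limma) and without Control KD replicate 3 (0.0470). Under the other 14 of 16 settings it stayed uncalled, and over all 16 it ran from -0.29 to -0.11. Reads of 67 exon bases (1.30%) could also belong to the antisense gene RHOBTB2, whose level was 1371 to 1767 over the knockdown libraries.

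The decoy receptors were the least abundant of the 10 genes per length, and their genes stand with those of DR4 and DR5 within 205.0 kb of chromosome 8. TNFRSF10C measured 8.48, 6.15 and 9.74 normalised counts in Control KD, 51.2, 16.3 and 22.7 in EloB KD, and 9.90, 7.50 and 15.8 in EloC KD, from 24, 96 and 32 reads per group. The 3 EloB KD libraries were the highest, and replicate 1 held more than the other EloB KD libraries together. TNFRSF10C was tested only because EloB KD lifted its mean over the filter of 10 normalised counts, so it had to differ and its call supports nothing. The fold change was 1.63 ± 0.45 against Control KD (adjusted p = 0.0267, limma). That call was lost without EloB KD replicate 1 (1.17, adjusted p = 0.0896), EloB KD replicate 3 (0.0544), Control KD replicate 1 (0.0587) or Control KD replicate 2 (0.0842). EloB KD against EloC KD gave 1.26 ± 0.45 (adjusted p = 0.0389, limma), which was lost without any one of EloB KD replicate 1 (0.147) or 3 (0.0641) and EloC KD replicate 1 (0.0886) or 2 (0.124). TNFRSF10D had 1, 1 and 0 reads in Control KD, 3, 6 and 3 in EloB KD, and 4, 3 and 3 in EloC KD, too few to test. Per exon length, the decoys made up 0.209% of the 4 TRAIL receptors' level in Control KD and 0.978% in EloB KD, where the libraries ran from 0.590% to 1.60%.

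TNFSF10, which encodes TRAIL itself, was a low-abundance transcript. Its counts were 146.0, 106.3 and 113.2 in Control KD, 267.4, 131.6 and 159.1 in EloB KD, and 176.1, 140.4 and 157.9 in EloC KD. Groups overlapped, and EloB KD replicate 1 was the highest library; it was also the highest of its own group for FAS and TNFRSF10C. The change was 0.55 ± 0.25 in EloB KD (adjusted p = 0.151, limma) and 0.38 ± 0.25 in EloC KD (adjusted p = 0.248, limma), neither of which passed. With the replicate block the EloB KD comparison passed (adjusted p = 0.0219, limma). Under the other 15 of 16 settings it did not.

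The adaptor, the caspase and its competitor showed no called change. CFLAR, CASP10 and CASP8 lie side by side within 171.6 kb of chromosome 2, and FADD is on chromosome 11. FADD, the bridge between receptor and caspase, measured 3537, 3710 and 3967 in Control KD, 3391, 3560 and 3736 in EloB KD, and 3474, 3301 and 3491 in EloC KD. CASP8, the initiator caspase, gave 3798, 3691 and 3447 in Control KD, 3489, 3609 and 3206 in EloB KD, and 3495, 3375 and 3367 in EloC KD. CFLAR gave 4325, 4205 and 3708, then 4479, 3759 and 3474, then 4073, 4220 and 3431 in the same order of groups. All 3 genes overlapped between every pair of these groups except FADD in EloC KD, which lay wholly below Control KD. Their log2 fold changes ran from -0.13 to 0.06 over the 3 comparisons. The 95% intervals against Control KD were -0.25 to 0.11 (EloB KD) and -0.31 to 0.05 (EloC KD) for FADD, and -0.27 to 0.09 and -0.27 to 0.09 for CASP8. For CFLAR they were -0.33 to 0.19 and -0.33 to 0.20. CFLAR counts cover all its isoforms together, so the long and short FLIP forms were not separated.

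**Figure D2:**
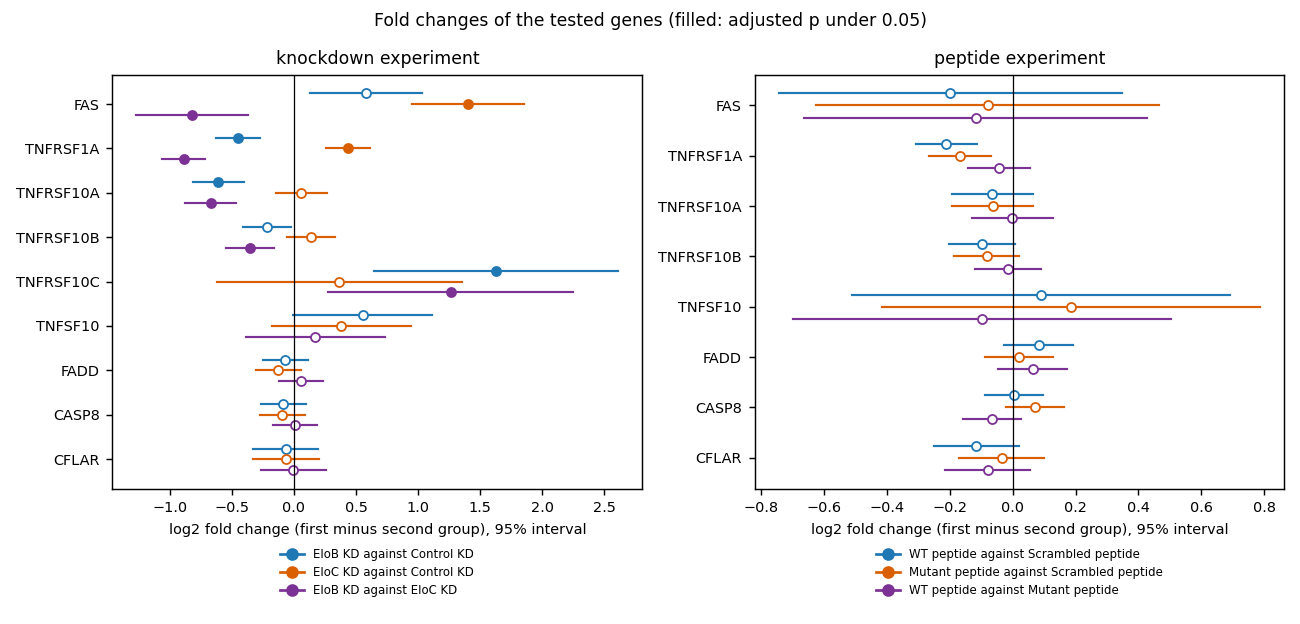
Log2 fold changes of the tested genes (points) with 95% intervals from limma (lines), first group minus second, for the 3 knockdown comparisons and the 3 peptide comparisons; filled points passed an adjusted p of 0.05. Receptors carry all the filled points, from -0.89 (TNFRSF1A, EloB KD against EloC KD) to 1.63 (TNFRSF10C, EloB KD against Control KD), and the peptide panel, fitted without the replicate block, has none.

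Over the 9 genes tested, EloB KD against Control KD gave 1 called higher (TNFRSF10C) and 2 lower (TNFRSF1A, TNFRSF10A), where 9.34% and 11.2% of the 13764 genes tested were called higher and lower. With the replicate block the counts were 3 higher and 3 lower, where 17.5% and 18.8% of all genes were called. EloC KD gave 2 higher (FAS, TNFRSF1A) and 0 lower, against 21.3% and 21.2% of all genes; at an unadjusted p under 0.05 these 2 were also the only ones. EloB KD against EloC KD gave 1 higher and 4 lower, against 22.3% and 23.8% of all genes. With the block the counts of these comparisons were also 2 and 0 in EloC KD, against 28.7% and 28.3% of all genes, and 1 and 4 between the knockdowns, against 28.7% and 30.7%. Without TNFRSF10C and without the block, the counts over 8 genes were 0 and 2, 2 and 0, and 0 and 4. The shares in EloC KD, and the share called higher in EloB KD, are near the background, so these counts are not a result about these genes. The counts called lower in EloB KD and between the knockdowns rest on few genes, chosen with earlier results known. They were not tested as a set. The median log2 fold change over the tested genes was -0.07 in EloB KD and 0.14 in EloC KD, against 0.0035 and 0.0068 over all genes. EloB KD and EloC KD share their Control KD libraries.

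Levels were compared between genes per length, as reads per kilobase of annotated exon, scaled to the library's total reads (RPKM), averaged over the 9 knockdown libraries. In that unit FADD stood at 39.9, TNFRSF10B at 30.9, TNFRSF1A at 23.9, TNFRSF10A at 11.7, CASP8 at 9.92, CFLAR at 3.62, FAS at 3.23, TNFSF10 at 0.926, TNFRSF10C at 0.186 and TNFRSF10D at 0.0153. The order of the upper members depends on the length used: with a principal coding transcript in place of all annotated exons, CASP8 moved from rank 5 to rank 1. FAS, TNFSF10 and the decoys held ranks 7 to 10 under both lengths. In the peptide experiment the order was the same apart from TNFRSF1A (34.5) standing above TNFRSF10B (27.0).

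Ratios of these per-length levels within a library show how the receptors shifted against each other. DR5 to DR4 was 2.40 ± 0.23 (SD, n = 3) in Control KD, 3.16 ± 0.41 in EloB KD and 2.52 ± 0.11 in EloC KD. The lowest EloB KD library (2.69) lay above the highest of the other knockdown libraries (2.60). TNFRSF1A to FAS was 12.6 ± 2.2 in Control KD, 6.21 ± 1.30 in EloB KD and 6.43 ± 0.49 in EloC KD, and both knockdowns lay wholly below Control KD (10.95 to 15.1). The log2 fold changes behind this were 0.58 for FAS, which was not called, and -0.45 for TNFRSF1A in EloB KD, and 1.40 and 0.44 in EloC KD. CFLAR to CASP8, the balance of competitor and caspase transcripts, was 0.359 ± 0.012 in Control KD, 0.365 ± 0.042 in EloB KD and 0.368 ± 0.038 in EloC KD, with overlapping libraries. These ratios are descriptions with no test. Their size depends on the gene lengths used, as the ranks did, while the comparison between groups does not.

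**Figure D3:**
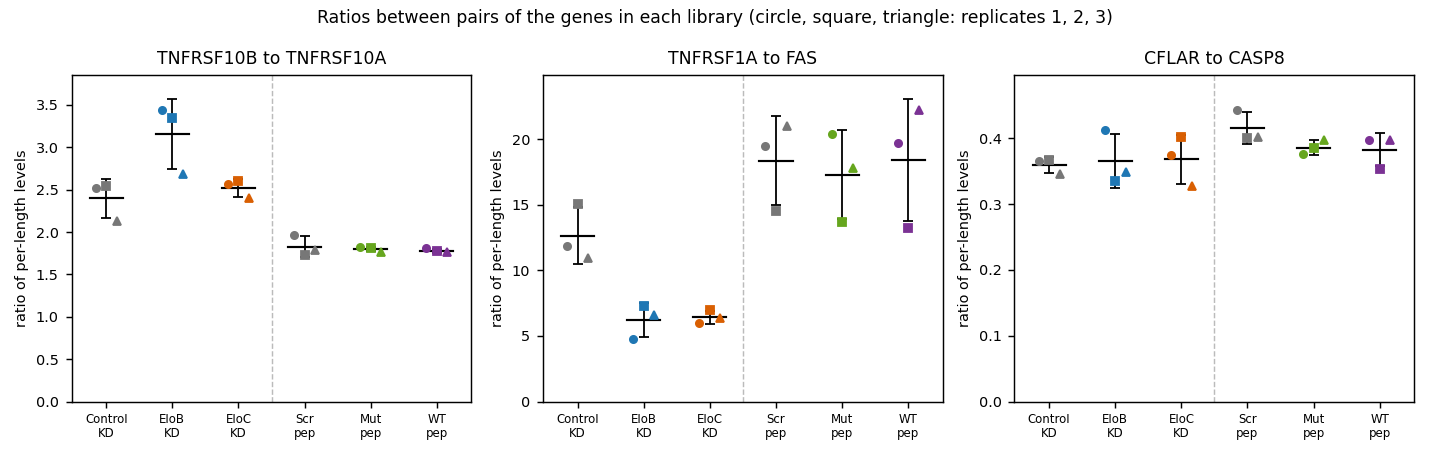
Ratios of per-length levels in each of the 18 libraries (vertical axes, linear from 0), with group mean and SD: TNFRSF10B to TNFRSF10A, TNFRSF1A to FAS, and CFLAR to CASP8. The first is highest in EloB KD (2.69 to 3.45), the second is lower in both knockdowns than in Control KD, and the third overlaps among the knockdown groups.

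TNFRSF1A was lower under both peptides than with the Scrambled peptide. Limma called both differences with the replicate block and neither in the fit reported, which has no block. The WT peptide difference also passed without the block under quantile scaling (adjusted p = 0.0494, limma) and at a mean of at least 50 (0.0473). Against the Scrambled peptide, 0 of the 8 genes tested were called for the WT peptide in the fit reported, where 0.839% and 0.595% of the 13105 genes tested were called higher and lower. For the Mutant peptide against the Scrambled peptide and for the WT peptide against the Mutant peptide, 0 of 8 were called without the block and 0% of all genes in either direction by limma; over all genes, edgeR called 0 in both, and DESeq2 161 and 54. With the block, 1 of the 8 genes (TNFRSF1A) was called lower for the WT peptide, against 7.96% of all genes higher and 8.23% lower. It was also the 1 called, lower, for the Mutant peptide, against 3.72% and 4.59% of all genes (1088 genes). For WT against Mutant the block called 0 of the 8, against 2.4% and 1.69% (536 genes). At an unadjusted p under 0.05, 1 gene passed for the WT peptide and 1 for the Mutant peptide, TNFRSF1A in both cases, and 0 for WT against Mutant. edgeR and DESeq2 each called 1 of the 8 for the WT peptide, TNFRSF1A again, and 0 in the other peptide comparisons.

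TNFRSF1A measured 5043, 5158 and 4988 normalised counts with the Scrambled peptide, 4524, 4493 and 4503 with the Mutant peptide, and 4394, 4595 and 4139 with the WT peptide. All 6 libraries of the Mutant and WT peptides lay below the lowest Scrambled library. The WT peptide gave a log2 fold change of -0.21 ± 0.04 (adjusted p = 0.0524, limma; 0.00073 with the replicate block; 0.0384 without WT peptide replicate 2). Of 16 settings, 10 left this fold change uncalled. In the authors' deposited table it is -0.19 with adjusted p = 0.00217. For the Mutant peptide it was -0.17 ± 0.04 (adjusted p = 0.244, limma; 0.00716 with the replicate block). WT against Mutant differed by -0.04 ± 0.04 with a 95% interval of -0.14 to 0.05 (adjusted p = 0.939, limma), so no difference between the peptides was detected, and a missed threshold does not show that they act alike.

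**Figure D4:**
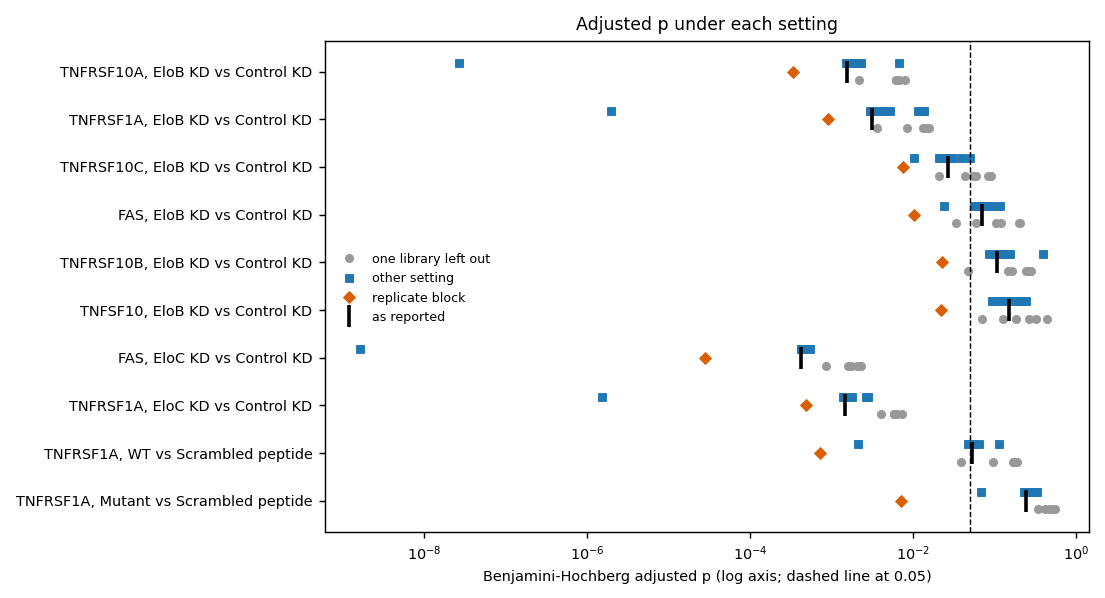
Benjamini-Hochberg adjusted p (horizontal log axis, dashed line at 0.05) of 10 gene and comparison pairs as reported (bar), with the replicate block (diamond), with 1 library left out (circles) and under the other settings tried (squares). FAS in EloC KD and TNFRSF10A and TNFRSF1A in EloB KD stay left of the line throughout, while TNFRSF10C, FAS and TNFRSF10B in EloB KD and TNFRSF1A under the WT peptide lie on both sides of it.

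FAS under the peptides was 275.1, 377.1 and 252.1 with the Scrambled, 235.5, 349.2 and 269.0 with the Mutant and 236.5, 369.6 and 197.6 with the WT peptide. Replicate 2 was the highest in each group, as on the first principal component, and the groups overlapped. WT against Scrambled gave -0.20 with a 95% interval of -0.75 to 0.35 (adjusted p = 0.820, limma). TNFRSF10A spanned 1414 to 1635 and TNFRSF10B 4423 to 5018 over the 9 libraries. FADD spanned 2340 to 2589, CASP8 1766 to 1933 and CFLAR 2027 to 2530. TNFSF10 was at 20.7 to 38.5 normalised counts and its interval, -0.51 to 0.69 for the WT peptide, was the widest. TNFRSF10C (0 to 5.33) and TNFRSF10D (0 to 3.06) were under the filter. CFLAR to CASP8 was 0.415 ± 0.024 with the Scrambled, 0.386 ± 0.011 with the Mutant and 0.383 ± 0.025 with the WT peptide, and the highest value of the latter groups (0.397 in both) lay just below the lowest Scrambled library (0.401).

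Other genes of the pathway, in 8 lists of 66 genes written from textbook knowledge with earlier results known, were counted in the same fits. The TNF receptor complex list holds the adaptors, ubiquitin ligases and deubiquitinases that act at TNFR1, and all 13 genes were tested. Of these, 4 were higher and 0 lower in EloB KD, against 9.34% and 11.2% of all genes, and 9 higher and 1 lower in EloC KD, against 21.3% and 21.2%. The median log2 fold changes were 0.21 and 0.59, against 0.0035 and 0.0068 over all genes. TNFAIP3 (A20, an editor of ubiquitin chains that restrains NF-kB) rose by 1.09 ± 0.14 in EloB KD (adjusted p = 0.000721, limma) and by 3.29 ± 0.14 in EloC KD (adjusted p = 1.72e-06, limma). BIRC3 (cIAP2, a ubiquitin ligase at TNFR1) went from 184.2 ± 45.5 in Control KD to 603.9 ± 196.5 in EloB KD and 2035 ± 1398 (SD, n = 3) in EloC KD. CYLD, a deubiquitinase, rose by 0.57 ± 0.13 and 0.81 ± 0.13. BIRC2 (cIAP1) rose by 0.41 ± 0.11 in EloB KD, a call lost under 4 of 16 settings, all of them with 1 library left out. TRAF1, an adaptor, rose by 2.57 ± 0.35 in EloC KD (adjusted p = 0.00027, limma), and was lower in EloB KD than in EloC KD by a log2 fold change of -1.58 ± 0.35. Between the knockdowns, 2 genes of this list were higher and 6 lower in EloB KD, against 22.3% and 23.8% of all genes.

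Of 11 other caspases and mitochondrial arm genes, 2 were higher and 1 lower in EloB KD (9.34% and 11.2% of all genes), and 1 higher and 1 lower in EloC KD (21.3% and 21.2%). With the replicate block these counts were 3 and 3, against 17.5% and 18.8% of all genes, and 2 and 2, against 28.7% and 28.3%. CASP10, the neighbour of CASP8 and CFLAR on chromosome 2 and a paralog of CASP8, fell from 681.0 ± 76.6 to 402.1 ± 31.2 in EloB KD, by 0.76 ± 0.13 on the log2 scale (adjusted p = 0.00243, limma). XIAP, an inhibitor of caspases, fell by 0.52 ± 0.12 in EloC KD (adjusted p = 0.00663, limma). Between the knockdowns, CASP10 was lower in EloB KD, with a log2 fold change of -0.59 ± 0.13 (adjusted p = 0.00318, limma).

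Among 8 modulators of the death-inducing signalling complex, 0 were called in EloB KD by limma (0 at an unadjusted p under 0.05, and 0 by edgeR and by DESeq2), while 2 were higher and 3 lower in EloC KD, against 21.3% and 21.2% of all genes. PEA15, which binds FADD and caspase-8, went from 10580.2 ± 1054 to 26905 ± 5051 in EloC KD, a rise of 1.33 ± 0.17 (adjusted p = 0.000225, limma). FAIM, an inhibitor of FAS signalling, fell by 1.31 ± 0.18, and CUL3, a ubiquitin ligase scaffold that modifies caspase-8, fell by 0.78 ± 0.08. FAF1, a FAS-associated factor, rose by 0.56 ± 0.10. In the direct comparison of EloB KD with EloC KD, 3 were higher and 3 lower, against 22.3% and 23.8% of all genes, and PEA15 gave -1.51 ± 0.17.

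Of 8 other death, decoy and TNF receptors 4 were tested. In EloB KD 0 were higher and 1 lower, against 9.34% and 11.2% of all genes, and this was TNFRSF21 (DR6), lower by 0.48 ± 0.11. That call was lost without EloB KD replicate 2 or 3 or Control KD replicate 2. With the block 1 of these receptors was higher and 2 lower in EloB KD, against 17.5% and 18.8% of all genes, and 2 were higher in EloC KD, against 28.7%, where 0 were called without it. Of 6 other death ligands, 3 were tested. FASLG rose from 4.54 ± 0.82 to 22.4 ± 3.1 normalised counts in EloB KD and TNFSF15 from 8.54 ± 2.39 to 126.0 ± 46.6 in EloC KD, each passing the filter mainly through the raised group. TNF was under the filter, at 0 in Control KD and at group means of 0.31 in EloB KD and 2.40 in EloC KD. LTA and LTB were at 0 in all 9 knockdown libraries. MLKL, the executor of necroptosis and the 1 tested of 3 genes listed for it, was lower in both EloB KD (-0.63 ± 0.10) and EloC KD (-0.32 ± 0.10). Over all genes 11.2% and 21.2% were called lower. The MLKL call in EloC KD was lost when any one of 5 libraries was left out. RIPK3, which activates MLKL, stood at 0.32 at most as a group mean. Of 5 genes of TRAIL receptor glycosylation and turnover 2 were tested. They were GALNT3, which adds O-linked sugars to proteins, and MARCHF8, a membrane ubiquitin ligase for TRAIL receptors. Both were higher in EloB KD (0.61 and 0.71), against 9.34% of all genes, and in EloC KD (1.05 and 0.74), against 21.3%. The GALNT3 call in EloB KD was lost under 7 of 16 settings.

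Of 12 transcription factors that act on death receptor or ligand genes, 0 were higher and 2 lower in EloB KD (9.34% and 11.2% of all genes), and 3 higher and 5 lower in EloC KD (21.3% and 21.2%). DDIT3 (CHOP), a stress factor that acts on the DR5 gene, rose by 1.25 ± 0.15 in EloC KD (adjusted p = 0.000136, limma). RELA, the NF-kB subunit, rose by 0.29 ± 0.08 there, and FOXO3 fell by 0.54 ± 0.12 in EloB KD (adjusted p = 0.00972, limma). Between the knockdowns 3 were higher and 5 lower in EloB KD, against 22.3% and 23.8% of all genes. None of the 8 lists had a gene called in any peptide comparison by limma without the block, nor by edgeR. At an unadjusted p under 0.05, 1 list gene was higher and 7 lower under the WT peptide and 0 higher and 7 lower under the Mutant peptide, where DESeq2 called 2 and 3 lower; for WT against Mutant 2 were higher, and DESeq2 called 0. With the block, 4 genes of the TNF receptor complex list and 5 transcription factors were lower under the WT peptide, against 8.23% of all genes, and 7 and 2 under the Mutant peptide, against 4.59%. It also called 1 other receptor lower and 1 caspase-arm gene higher (7.96% of all genes) under the WT peptide, and 1 transcription factor higher for WT against Mutant (2.4% of all genes).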

How the data were processed

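PC3 RNA was sequenced in 18 libraries (TruSeq Stranded mRNA, per the labels' protocols). Per the submitters' processing notes, reads were counted with featureCounts on hg38 and processed with DESeq2; versions and strand settings are not given in the sources used here. The authors deposited 2 tables of counts divided by size factors (a signal, normalised per experiment), and whole reads were recovered for 100% of values within 0.05 of a whole number. The authors' deposited comparison tables give log2 fold changes and adjusted p-values; a Mutant against Scrambled comparison by the authors was not analysed here. All per-sample columns were mapped to a sample.

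Each experiment was fitted with limma 3.58.1 (R 4.3.3; trended variance) on log2(normalised count + 1), keeping genes whose mean over the experiment's 9 libraries reached 10, with 1 spread for the 3 groups, 2-sided, with Benjamini-Hochberg adjustment. Alternatives were edgeR 4.0.16, DESeq2 1.42.0 (both fitted to the recovered reads), a replicate block, other scalings, filters, pseudocounts and thresholds, and leaving out each library. The fit was tested on simulated data. The tables were normalised separately and not compared. Between groups, deviations of same-numbered libraries from their group means correlated at 0.236 to 0.566 (knockdown) and 0.254 to 0.715 (peptide). Those of differently numbered libraries correlated at -0.439 to 0.070 and -0.546 to 0.336, so the ranges overlap in the peptide experiment. The fit reported has no term for this likeness, and the replicate block has one.

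The members and lists were chosen with earlier results of these data known. All 10 members are named; of each list, the called genes of smallest adjusted p, at most 4 per comparison, are named. Genes under the filter are given as levels only. Some list and marker genes are not reported here.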

Additional observations from a re-analysis of the deposited data

How the results depend on the processing

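Over the member fold changes, 751 of 808 values under the alternatives kept direction and side of the threshold, 10 lost the call, 13 gained it and 34 changed sign. The changes of sign were in 15 small fold changes, and 0 of the 34 values passed the threshold (smallest adjusted p 0.555, limma or edgeR). All 10 losses were of TNFRSF10C, which has few reads. The replicate block changed the calls of FAS, TNFRSF10B and TNFSF10 in EloB KD and of TNFRSF1A under the WT and Mutant peptides, and no other member call. In the next counts the cause was not tested. By construction, a stricter threshold passes no more genes and a stricter filter tests no more. Leaving out a library moved some counts up and others down.

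By setting, these log2 fold changes turned for CFLAR in EloB KD (0.011 with quantile scaling), CFLAR between the knockdowns (0.0024 with TMM, 0.095 with quantile scaling and 0.0054 with edgeR) and CASP8 under the WT peptide (-0.00012 with edgeR). With 1 library left out, the ranges that crossed 0 were as follows. CFLAR ran from -0.17 to 0.012 in EloB KD and from -0.13 to 0.026 in EloC KD. Between the knockdowns TNFSF10 ran from -0.12 to 0.39, CASP8 from -0.029 to 0.057 and CFLAR from -0.11 to 0.076. For WT against Scrambled TNFSF10 ran from -0.071 to 0.24 and CASP8 from -0.013 to 0.018. For Mutant against Scrambled FAS ran from -0.24 to 0.092, TNFSF10 from -0.019 to 0.36, FADD from -0.022 to 0.047 and CFLAR from -0.075 to 0.023. For WT against Mutant FAS ran from -0.38 to 0.075, TNFRSF10A from -0.042 to 0.024, TNFRSF10B from -0.052 to 0.0065 and TNFSF10 from -0.27 to 0.11.

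EloB KD against Control KD, members higher (1 reported): 3 with the replicate block, 2 with DESeq2, 2 with no filter, 0 at a mean of at least 50, 0 at a threshold of 0.01, and 0 to 2 with 1 library left out. Members lower (2 reported): 1 at 1.5-fold or more. All genes called (2822): 4996 with the block, 1242 at 0.01 and 1595 at 1.5-fold. EloC KD against Control KD, members higher (2): 1 at 1.5-fold; all genes (5844): 3774 at 0.01 and 3361 at 1.5-fold. EloB KD against EloC KD, members higher (1): 0 with quantile scaling, at a mean of at least 50, with only these 2 groups fitted and at 0.01, and 0 to 1 with 1 library left out; all genes (6343): 3772 at 1.5-fold.

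WT against Scrambled peptide, members lower (0): 1 with the block, quantile scaling, edgeR, DESeq2 and a mean of at least 50, and 0 to 1 with 1 library left out; all genes (188): 2122 with the block, 509 with DESeq2, 64 at 0.01, 36 at 1.5-fold, and 66 to 180 with 1 library left out. Mutant against Scrambled, members lower (0): 1 with the block; all genes (0): 1088 with the block, 161 with DESeq2 and 0 to 1 with 1 library left out. WT against Mutant, all genes (0): 536 with the block and 54 with DESeq2. Depth limits TNFRSF10C and TNFRSF10D, whose reads per group stayed under 100 in both experiments. It also limits TNFSF10 in the peptide experiment, with 77 reads in the Scrambled, 90 in the Mutant and 80 in the WT peptide group.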

Other observations

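Some genes followed the members closely over the 18 libraries, after centring log2(normalised count + 1) on each experiment's mean. Points share libraries and groups, so the correlations (Pearson) are descriptions, taken as the highest of 11642 genes. FAS was most like ALG3 (0.956), SLC35D2 (0.947) and FBXO32 (0.935). TNFRSF10A was most like GOSR1 (0.981), ATP8B2 (0.980) and UTP23 (0.980), and TNFRSF10B most like SERTAD2 (0.952), MAP4K3 (0.942) and PERP (0.928). CASP8 (ADGRB3, HDX and CCNT1, 0.828 to 0.815) and CFLAR (SBF2, CHD2 and KLF3, 0.868 to 0.826) had no neighbour as close. Among the members, TNFRSF1A correlated with TNFRSF10A at 0.855 and with TNFRSF10B at 0.847, and with FAS at 0.554.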
